A study of Rattus norvegicus with 24 samples.

Results

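The genes described here are enzymes that write, keep or oxidise cytosine methylation, read in RNA-seq of rat neural stem cells and of cells differentiated from them. The list names 8 genes, Dnmt1, Dnmt3a, Dnmt3b, Uhrf1, Tdg, Tet1, Tet2 and Tet3, matched by symbol in a table of 12187 genes. Of these, 5 had a row, Dnmt1, Dnmt3a, Dnmt3b, Uhrf1 and Tdg, and all 5 passed the filter of at least 1 CPM in at least 2 libraries. Tet1, Tet2 and Tet3 were not analysed here. Cells were of the Sprague-Dawley background and formed 3 groups of 2 libraries: cells differentiated with vitamin C (VC+), cells differentiated without it (VC-) and undifferentiated neural stem cells (D0). The differentiated libraries carry a day 4 label in replicate 1 and a day 5 label in replicate 2, and the stem cell libraries a day 0 label in both. Whether replicates came from different cultures or animals is not stated, so each p-value reflects only how these libraries vary. Between replicates they differ in the day label of the differentiated cells and in levels of cell type markers, beside any technical variation. The comparisons ask whether transcripts of the methylation machinery differ with vitamin C during differentiation, and how each differentiated state differs from the stem cells.

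DNA methylation in mammals is set by the de novo methyltransferases Dnmt3a and Dnmt3b and copied onto the new strand at replication by Dnmt1. Uhrf1 recognises hemimethylated CpG sites and brings Dnmt1 to them, and its transcript is known to be abundant in dividing cells. Removal can be active: Tet dioxygenases, which use iron and 2-oxoglutarate and are stimulated by vitamin C, oxidise 5-methylcytosine, and the glycosylase Tdg excises the more oxidised forms so that base excision repair can restore cytosine. In the brain, Dnmt1 and Uhrf1 are associated with progenitor division and Dnmt3a with later stages of neural development.

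Promoter sequences of the genes that copy methylation are shown because Uhrf1 is the member that lay furthest from its stem cell level. They come from RefSeq on the GRCr8 build, in which each window runs from 250 bases before to 50 after a transcript start, and the submitters' processing notes name another build, rn5. Windows were given for 4 of the 5 members, Dnmt1, Dnmt3a, Tdg and Uhrf1, and Uhrf1 has 3 of them, on the plus strand of chromosome 9. The 2 printed for Uhrf1 were chosen because they hold E2F-type letters. Capitals mark E2F-type letters and the CCAAT box, each on either strand. Letters counted as E2F-type were TTCCCGC, and likewise TTGGCGC, and also TTCGCGC. The letters TTTGAA (CHR), ACGTG (hypoxia response) and GGGCGG (Sp) were searched as well and are not marked. The sequences are the 250 bases before Uhrf1 start 2 (chr9:1222050-1222299), the same before start 3 (chr9:1222936-1223185) and, for Dnmt1 on the minus strand, the 30 bases from position 14 to 43 after its start (chr8:27762799-27762828), in which only the E2F-type letters are capitalised.
Uhrf1 start 2: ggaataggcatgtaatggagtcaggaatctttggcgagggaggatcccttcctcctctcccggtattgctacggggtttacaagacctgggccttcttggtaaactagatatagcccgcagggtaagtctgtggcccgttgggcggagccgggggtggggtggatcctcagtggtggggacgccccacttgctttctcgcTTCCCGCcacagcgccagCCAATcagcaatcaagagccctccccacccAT
Uhrf1 start 3: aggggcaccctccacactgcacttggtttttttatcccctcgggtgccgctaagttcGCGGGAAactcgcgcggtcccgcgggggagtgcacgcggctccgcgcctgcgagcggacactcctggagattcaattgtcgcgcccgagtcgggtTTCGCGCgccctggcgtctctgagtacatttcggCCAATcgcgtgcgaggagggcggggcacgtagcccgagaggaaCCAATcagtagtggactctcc
Dnmt1 start: tggtttccgcgcGCGCGAAaaagccggggt

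E2F-type letters stood 50 bases before Uhrf1 start 2, 193 and 98 bases before start 3, and 26 bases after the Dnmt1 start. The windows of Dnmt3a and Tdg and the first Uhrf1 window held none. Such letters occurred in 7.52% of the 33469 promoter windows of this length, and CCAAT in 37.5%. Counted by gene, over any of its windows, the shares were 8.4% and 39.6% of 27457 genes. In the Uhrf1 window of start 2 the capitals at the right end are the beginning of a CCAAT box on the reverse strand that runs past the start. The Uhrf1 windows had 8 CpG sites and 55.0% GC at start 1, 13 and 59.3% at start 2, and 35 and 66.3% at start 3. The Dnmt1 window had 17 and 62.3%, the Dnmt3a window 21 and 74.3%, and the Tdg window 21 and 58.3%. TTTGAA stood in no window of the members, against 18.3% of all windows. ACGTG stood in the windows of Dnmt3a, Tdg and Uhrf1 starts 1 and 3, against 19.3%. GGGCGG stood in those of Dnmt1, Dnmt3a and Uhrf1, against 33.1%. A match is a description of letters, not a bound site.

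The libraries of replicate 2 held 10299321 to 13184601 reads over the genes listed and those of replicate 1 held 4811094 to 6641721. Each of the 5 members had at least 52 reads in every library. Marker levels of other cell types differed between replicates. The 10 microglia and macrophage markers summed to 4.50 and 537 CPM in the VC+ libraries of replicate 1 and replicate 2, 4.42 and 721 CPM in VC- and 4.41 and 270 CPM in D0. In replicate 1, 6, 3 and 7 of these 10 were at 0 in the 3 groups, C1qa, C1qc, Aif1, Cx3cr1, Tyrobp and Itgam among VC+ cells. All 7 fibroblast and meninges markers with a row were higher in replicate 2 in every group, with sums of 259 and 3945 CPM in VC+, 320 and 6328 CPM in VC- and 179 and 10253 CPM in D0. Oligodendrocyte lineage markers ran the other way, with sums of 8305 and 789 CPM in VC+, 12165 and 1090 CPM in VC- and 2109 and 736 CPM in D0. Astrocyte markers summed to 4171 and 6053 CPM in VC+, 1320 and 1873 CPM in VC- and 1029 and 1910 CPM in D0. All 8 neural stem and progenitor markers were detected in every library. They summed to 3204 and 4948 CPM in VC+, 3948 and 4488 CPM in VC- and 3914 and 4764 CPM in D0. Nes, the stem cell intermediate filament, was at 35.3 and 32.5 CPM in VC+, 81.6 and 53.5 CPM in VC- and 159 and 116 CPM in D0, and DESeq2 called it lower in VC+ cells (log2 difference -1.98, adjusted p 1.63e-05; limma 0.974). Nes lay furthest below D0 of the 8 markers, whose median log2 differences were -0.37 in VC+ and -0.19 in VC- cells. In VC+ cells 3 of these 8 were lower than D0 in both replicates and 5 went opposite ways. In VC- cells 2 were lower, 1 was higher and 5 went opposite ways. Over all genes tested, 29.0% and 29.5% were lower in both replicates. The part of the stem cell share in the members' differences from D0 was not tested. In bulk libraries such as these, fewer cells of a type and less RNA per cell cannot be told apart.

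Uhrf1 was lower in differentiated cells than in stem cells, in both replicates and with or without vitamin C. It stood at 33.5 and 20.5 CPM in VC+ cells of replicate 1 and replicate 2, at 37.7 and 15.6 CPM in VC- cells and at 60.9 and 54.9 CPM in D0 cells. The group means were 27.0 ± 9.21, 26.6 ± 15.6 and 57.9 ± 4.28 CPM (SD, n = 2 each). Both stem cell libraries lay above all 4 differentiated ones. The log2 difference from D0 was -1.13 (SE 0.49) in VC+ cells and -1.23 (SE 0.49) in VC- cells, or 0.458 and 0.425 times the stem cell level. Neither passed without a replicate term: limma gave unadjusted p 0.0709 with vitamin C and 0.0540 without, and an adjusted p of 1.00 for both. The 95% intervals on the log2 scale were -2.39 to 0.14 and -2.50 to 0.03. Fits with a replicate block, in which DESeq2 called both and limma and edgeR neither, are given in the last section. Within replicates, the CPM ratios to D0 were 0.550 (95% counting interval 0.478 to 0.632) and 0.373 (0.331 to 0.419) in VC+ cells of replicate 1 and replicate 2, and 0.618 (0.536 to 0.713) and 0.284 (0.248 to 0.325) in VC- cells. Both comparisons use the same D0 libraries, so they are not independent of each other.

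Dnmt1, the maintenance methyltransferase, had values below the stem cell library of the same replicate in all 4 differentiated libraries. Its values were 158 and 88.1 CPM in VC+ cells, 126 and 83.2 CPM in VC- cells and 171 and 129 CPM in D0 cells. VC- libraries lay below both D0 libraries, while VC+ libraries overlapped them. Its log2 difference from D0 was -0.33 (SE 0.39) in VC+ cells and -0.53 (SE 0.39) in VC- cells, with limma adjusted p 1.00 for both. Per Dnmt1 read there were 0.213 and 0.232 Uhrf1 reads in VC+ cells, 0.299 and 0.187 in VC- cells and 0.356 and 0.426 in D0 cells, so the Uhrf1 share of the pair was lower in all 4 differentiated libraries. The 95% counting intervals nearest to each other were 0.263 to 0.338 in VC- cells of replicate 1 and 0.320 to 0.395 in D0 cells of replicate 1, and these overlap.

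**Figure D1:**
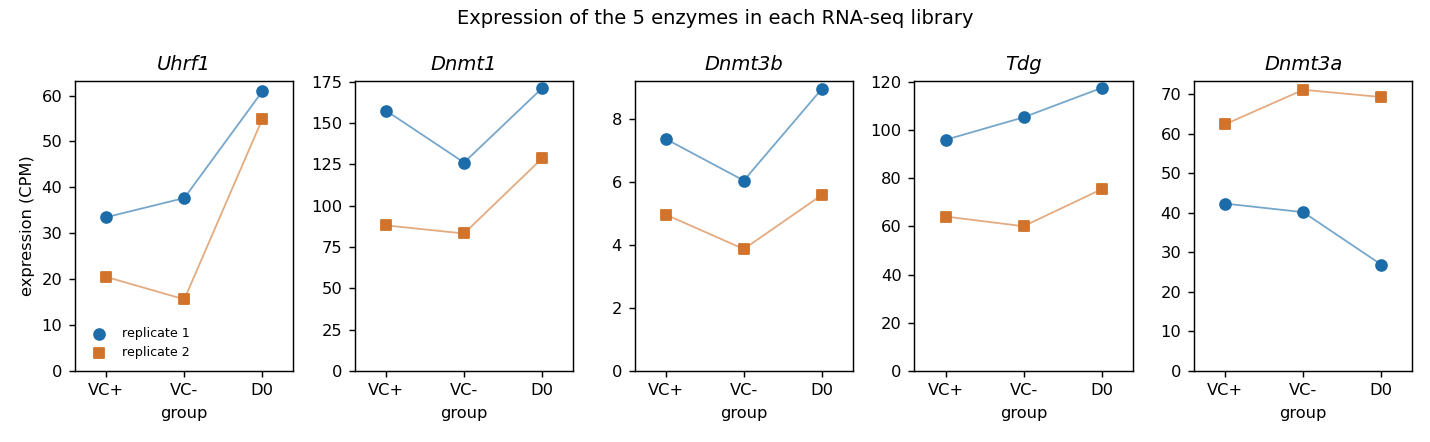
Expression in CPM (vertical axes from 0, a separate scale per gene) in the VC+, VC- and D0 libraries, with circles for replicate 1, squares for replicate 2 and lines joining libraries of the same replicate number. Uhrf1 is highest in both D0 libraries, 60.9 and 54.9 CPM, and Dnmt3a is the member whose replicate 2 squares lie above its circles in every group.

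The other three members showed smaller differences from stem cells. Dnmt3b, a de novo methyltransferase and the member with the fewest reads (52 to 106 a library), was at 7.37 and 4.96 CPM in VC+ cells, 6.05 and 3.87 CPM in VC- cells and 8.95 and 5.58 CPM in D0 cells. Its groups overlapped, although it was lower than D0 within each replicate, by -0.21 (SE 0.49) in VC+ cells and -0.50 (SE 0.49) in VC- cells on the log2 scale. Tdg was likewise lower than D0 within each replicate while its groups overlapped. It stood at 96.0 and 64.1 CPM in VC+ cells, 105 and 60.1 CPM in VC- cells and 118 and 75.4 CPM in D0 cells, log2 differences of -0.26 (SE 0.41) and -0.24 (SE 0.41). Dnmt3a, the other de novo methyltransferase, was at 42.3 and 62.4 CPM in VC+ cells, 40.1 and 71.1 CPM in VC- cells and 26.9 and 69.2 CPM in D0 cells. In replicate 1 it was higher than D0 by ratios of 1.57 (95% counting interval 1.33 to 1.86) with vitamin C and 1.49 (1.26 to 1.78) without, whereas in replicate 2 the ratios were 0.901 (0.830 to 0.977) and 1.03 (0.946 to 1.11). Its fitted log2 differences of 0.25 (SE 0.56) and 0.30 (SE 0.56) therefore rest on replicate 1, and limma gave adjusted p 1.00 for each of these members in both comparisons.

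The reads of the pair of de novo enzymes shifted towards Dnmt3a in replicate 2. There were 5.74 and 12.6 Dnmt3a reads per Dnmt3b read in VC+ cells, 6.63 and 18.4 in VC- cells and 3.0 and 12.4 in D0 cells. Within replicate 1 the counting intervals of both differentiated libraries, 4.50 to 7.41 in VC+ and 4.95 to 9.06 in VC-, lay above that of D0, 2.28 to 3.98. Within replicate 2 the VC+ interval, 10.3 to 15.5, and the VC- interval, 14.5 to 23.6, both overlapped that of D0, 9.93 to 15.7. Read ratios between genes depend on transcript length, so only their differences between libraries can be compared.

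Against the whole table, limma called 0 of 5 members and 0 of 11823 genes (0.0%) in each comparison with stem cells. At an unadjusted p under 0.05 there were 507 genes for VC+ and 382 for VC-. The replicate difference counts as spread in this fit. With a replicate block limma had 1885 and 1550 such genes and still called 0. Without the block edgeR called 0 in both, and DESeq2 called 137 (1.16%) and 71 (0.601%) with no member among them. Groups that did not overlap, lower than D0, were found for 1 of 5 members in VC+ cells (Uhrf1) and for 13.2% of all genes tested, and for 2 of 5 in VC- cells (Uhrf1 and Dnmt1), against 13.2% there too. Lower than D0 in both replicates were 4 of 5 members in each comparison, every one but Dnmt3a, against 29.0% of genes tested for VC+ and 29.5% for VC-. Replicates went opposite ways for 1 of 5 members in VC+ cells, Dnmt3a, and for 0 in VC- cells, against 41.0% and 40.4% of genes. The median log2 difference over the 5 members was -0.26 in VC+ cells and -0.50 in VC- cells, beside 0.01 over all genes in each.

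Genes of S phase and proliferation were mostly lower than in stem cells beside Uhrf1. Their 18 members had a median log2 difference of -0.94 in VC+ cells and -1.06 in VC- cells, and the groups lay apart, lower than D0, for 14 and 15 of them, against 13.2% of all genes in each. DESeq2 without a replicate term called 1 of the 18 in each comparison, Mcm2, a subunit of the replicative helicase, in VC+ cells (adjusted p 0.0234) and the proliferation antigen Mki67 in VC- cells (0.0296), and limma called 0. Mki67 stood at 83.1 and 42.7 CPM in VC+ cells, 62.0 and 38.1 CPM in VC- cells and 179 and 177 CPM in D0 cells. Top2a, the topoisomerase that untangles replicated DNA, stood at 104 and 70.2 CPM in VC+ cells, 90.0 and 54.3 CPM in VC- cells and 241 and 159 CPM in D0 cells. Mcm7, another helicase subunit, did not lie below D0 throughout, with 107 and 54.9 CPM in VC+ cells, 142 and 59.9 CPM in VC- cells and 137 and 113 CPM in D0 cells. The list also holds Pcna, the replication clamp that Dnmt1 binds, which differed from D0 by only -0.06 (SE 0.28) and -0.10 (SE 0.28). Uhrf1 lay among these genes in size and Dnmt1 at the small end, as the plot of differences from stem cells shows. Whether the share of dividing cells accounts for either gene was not tested.

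**Figure D2:**
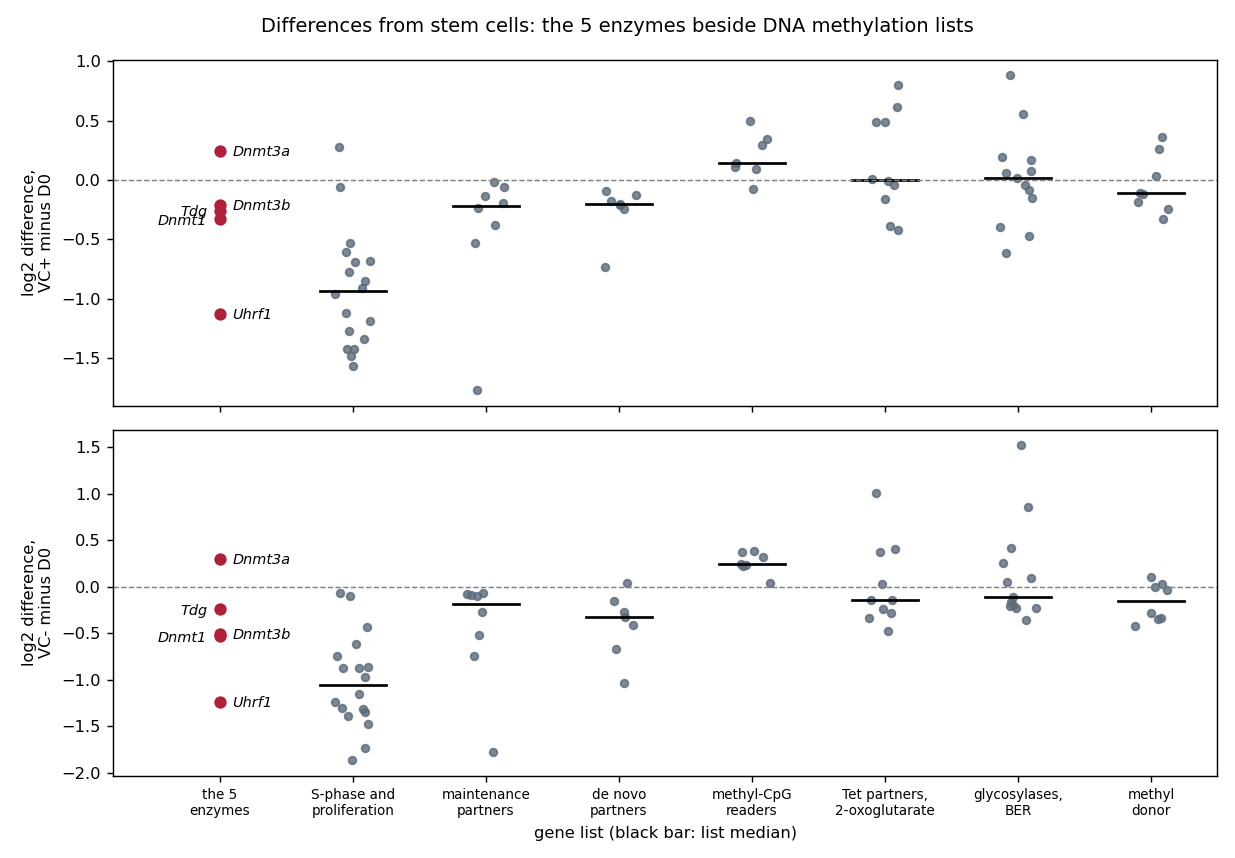
Log2 differences from D0 of the 5 enzymes (red, named) and of the genes of 7 lists (grey, with the list median as a black bar), for VC+ cells above and VC- cells below. The S-phase and proliferation list has medians of -0.94 and -1.06, near Uhrf1 at -1.13 and -1.23. Genes of the methyl-CpG reader list lie mostly above 0. BER is base excision repair.

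Among the genes that act with Dnmt1 and Uhrf1, Cdca7 lay furthest below its stem cell level. Of 8 maintenance partners with a row, 0 passed limma or DESeq2 without a replicate term in either comparison, and medians were -0.22 in VC+ and -0.19 in VC-. Cdca7, an activator of the chromatin remodeller Hells, was the lowest, at 17.8 and 8.24 CPM in VC+ cells, 13.8 and 10.6 CPM in VC- cells and 47.2 and 38.5 CPM in D0 cells; it was chosen after its values were seen. Its log2 difference was -1.77 (SE 0.44) in each comparison, with adjusted p 0.0653 for VC+ and 0.0708 for VC- in DESeq2 without a replicate term. Uhrf2, the paralog of Uhrf1, was at 126 and 66.3 CPM in VC+ cells, 115 and 74.1 CPM in VC- cells and 163 and 107 CPM in D0 cells. Trim28, a corepressor that recruits histone methylation, differed from D0 by -0.20 (SE 0.27) and -0.07 (SE 0.27), and the deubiquitinase Usp7, which stabilises Dnmt1 and Uhrf1, by -0.24 (SE 0.33) and -0.27 (SE 0.33).

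Nsd1 was the one gene of the de novo list that DESeq2 called. This enzyme methylates lysine 36 of histone H3, a mark that Dnmt3a reads. Its values were 137 and 120 CPM in VC+ cells, 70.6 and 77.9 CPM in VC- cells and 172 and 134 CPM in D0 cells, and both VC- libraries lay below the other 4. Nsd1 fell by 1.03 on the log2 scale (SE 0.23) in VC- cells, with DESeq2 adjusted p 0.0138 and limma 1.00, and differed by -0.25 (SE 0.23) in VC+ cells, where DESeq2 gave adjusted p 1.00. Between VC+ and VC- cells it differed by 0.79 (SE 0.23), not called by limma or DESeq2 (adjusted p 1.00 for both). The other 6 list genes with a row were not called, among them the H3 lysine 9 methyltransferases Ehmt2, at -0.09 (SE 0.29) in VC+ and 0.04 (SE 0.29) in VC-, and Setdb1, at -0.13 (SE 0.42) and -0.32 (SE 0.42).

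Genes of the methyl-CpG reader list leaned the other way from Uhrf1. A place in this list does not mean that the protein binds methylated CpG, Mbd3 and Mbd6 included. In VC- cells 5 of 7 were higher than D0 in both replicates and 0 lower, against 28.6% of all genes for higher, and in VC+ cells 4 were higher and 1 lower, again against 28.6%. Their medians were 0.14 in VC+ and 0.24 in VC-, and 0 of 7 passed limma or DESeq2. Mbd6 was at 224 and 111 CPM in VC+ cells, 196 and 153 CPM in VC- cells and 171 and 125 CPM in D0 cells, and Mbd3, a subunit of the NuRD complex, at 136 and 86.4, 148 and 83.2, and 94.7 and 76.4 CPM in the same groups. Zbtb4, a zinc finger reader, differed from D0 by 0.50 (SE 0.63) and 0.38 (SE 0.63).

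Lists on the oxidation and repair side had medians close to 0, while single genes ranged more widely. In the glycosylase and base excision repair list they ran from -0.61 to 0.88 in VC+ and from -0.35 to 1.52 in VC- cells. Both upper values were Gadd45b (SE 1.57), which had 9 to 541 reads a library. For Tet partners and 2-oxoglutarate metabolism, with 10 of 11 genes in the table, the medians were 0.00 in VC+ and -0.14 in VC-. Single genes of that list ranged from -0.42 to 0.80 in VC+ and from -0.47 to 1.02 in VC- cells, Cxxc4 being the highest in both. Ogt, the glycosyltransferase that binds Tet proteins, stood at 337 and 208 CPM in VC+ cells, 273 and 280 CPM in VC- cells and 466 and 259 CPM in D0 cells. The isocitrate dehydrogenases, which supply 2-oxoglutarate, differed from D0 by 0.49 (SE 0.49) and -0.14 (SE 0.49) for Idh1 and by -0.42 (SE 0.28) and -0.14 (SE 0.28) for Idh2, in VC+ and VC- cells. The list of glycosylases and base excision repair, which also holds Gadd45 genes and Apobec1, had 13 of 17 genes tested and medians of 0.02 and -0.10. The scaffold Xrcc1 differed by 0.17 (SE 0.23) and 0.05 (SE 0.23), Parp1 by -0.15 (SE 0.35) and -0.17 (SE 0.35), and the endonuclease Apex1 by 0.06 (SE 0.37) and -0.10 (SE 0.37). Methyl donor genes, 8 of 9 in the table, had medians of -0.11 and -0.15, with Mat2a, which makes S-adenosylmethionine, at 0.26 (SE 0.41) and 0.03 (SE 0.41), Ahcyl1 at -0.11 (SE 0.21) and -0.03 (SE 0.21) and Ahcy at -0.12 (SE 0.29) and 0.00 (SE 0.29). No gene of these 3 lists passed limma or DESeq2 in any of the comparisons.

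Between cells with and without vitamin C no member passed the test, and the fitted log2 differences lay between -0.06 and 0.29. Dnmt1 in VC+ cells was 1.25 times its VC- level in replicate 1 (95% counting interval 1.16 to 1.35) and 1.06 times in replicate 2 (0.990 to 1.13), a log2 difference of 0.20 (SE 0.39). Dnmt3b was also higher in both replicates, by ratios of 1.22 (0.846 to 1.77) and 1.28 (0.942 to 1.76), and its log2 difference was 0.29 (SE 0.49). For Uhrf1 the replicates went opposite ways, with ratios of 0.889 (0.762 to 1.04) and 1.31 (1.13 to 1.53). Tdg had ratios of 0.911 (0.832 to 0.998) and 1.07 (0.985 to 1.16), and Dnmt3a 1.05 (0.914 to 1.22) and 0.877 (0.813 to 0.947). The counting intervals compare 1 library with 1 library and leave out the variation between cultures.

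The vitamin C groups overlapped for all 5 members. Of all genes tested, 8.15% lay apart with VC+ higher and 7.82% with VC+ lower. Higher in both replicates were 2 of 5 members, Dnmt1 and Dnmt3b, against 30.0% of genes, and 0 were lower in both, against 26.4%, so that 3 went opposite ways, against 42.1%. In limma 0 of 5 members and 0 of 11823 genes (0.0%) were called, with 62 genes at an unadjusted p under 0.05, edgeR called 0 genes with 65, and DESeq2 called 6 (0.0507%). With the replicate block limma had 404 genes at an unadjusted p under 0.05 and called 0, and DESeq2 called 32 genes (0.271%), no member among them. The 95% limma intervals, as folds, were 0.573 to 2.31 for Dnmt1, 0.448 to 2.59 for Uhrf1, 0.515 to 2.92 for Dnmt3b, 0.358 to 2.59 for Dnmt3a and 0.475 to 2.05 for Tdg. With the replicate block, which pairs VC+ and VC- libraries, they were narrower, at 0.841 to 1.57 for Dnmt1, 0.634 to 1.83 for Uhrf1, 0.744 to 2.02 for Dnmt3b, 0.630 to 1.47 for Dnmt3a and 0.751 to 1.30 for Tdg. A missing call does not show that the levels were equal. In the pathway lists 0 genes were called by limma or DESeq2 for vitamin C, and list medians lay between -0.14 for base excision repair and 0.14 for the methyl donor cycle. Single genes of the Tet partner and 2-oxoglutarate list ranged from -0.41 to 1.09. The highest was Ogdh, at 171 and 193 CPM in VC+ cells and 84.9 and 85.2 CPM in VC- cells. Its DESeq2 adjusted p was 0.379, and 0.159 with the replicate block.

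**Figure D3:**
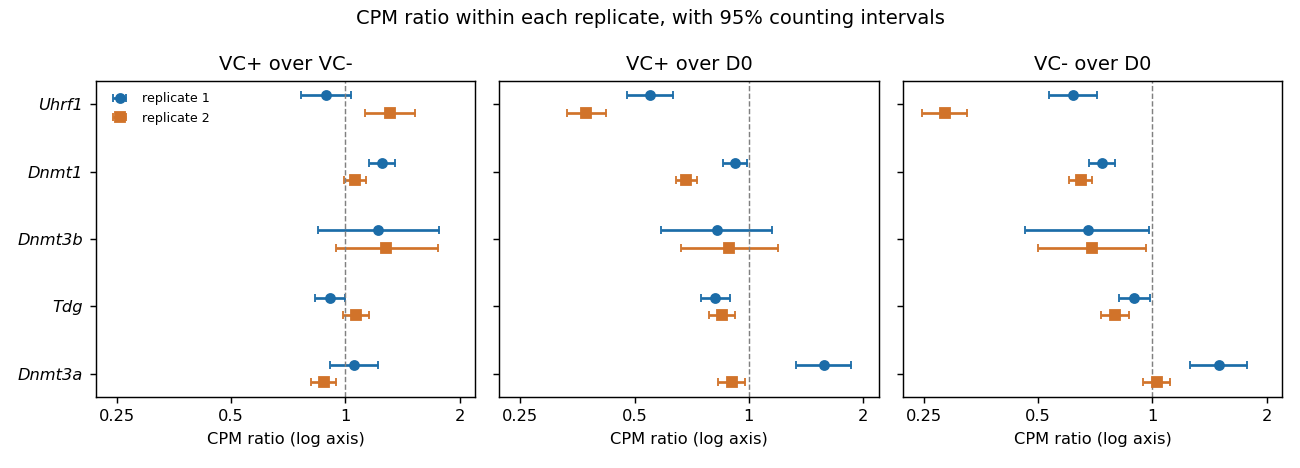
CPM ratios on a log axis within replicate 1 (circles) and replicate 2 (squares) for VC+ over VC-, VC+ over D0 and VC- over D0, with exact 95% counting intervals and a dashed line at 1. Uhrf1 lies left of 1 in both replicates against D0, from 0.284 to 0.618, and on either side of 1 for VC+ over VC-.

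Dnmt3a, Dnmt1 and Tdg differed between the replicates. In a limma fit with groups and replicate, a comparison added after seeing the data, 3 of 5 members passed, against 25.1% of all genes tested, 17.4% being higher and 7.7% lower in replicate 2. This fit sets 1 replicate set of libraries against 1 other, so its p-values do not measure how replicate sets vary. Dnmt3a rose in replicate 2, with ratios to replicate 1 of 1.47 in VC+ cells, 1.77 in VC- cells and 2.58 in D0 cells, a log2 difference of 0.91 (SE 0.19) and adjusted p 0.0314. Dnmt1 fell, with ratios of 0.559, 0.659 and 0.752 in the same groups, a log2 difference of -0.61 (SE 0.14) and adjusted p 0.0385. Tdg fell as well, with ratios of 0.668, 0.570 and 0.642, a log2 difference of -0.67 (SE 0.12) and adjusted p 0.0225. Dnmt3b, at -0.58 (SE 0.23), and Uhrf1, at -0.70 (SE 0.24), were lower in replicate 2 in every group without passing (limma adjusted p 0.118 and 0.0927). In all 3 groups alike, 4 of 5 members were lower in replicate 2, against 31.8% of genes, and 1 was higher, against 32.5%. The calls of Dnmt1, Dnmt3a and Tdg were lost without any 1 differentiated library, with limma adjusted p from 0.0760 to 0.216. Their log2 differences there were -0.62 to -0.50 for Dnmt1, 0.95 to 1.08 for Dnmt3a and -0.72 to -0.61 for Tdg. Uhrf1 passed without either D0 library (0.00822 and 0.00638). Over all genes, 0 were called without VC- replicate 2, 58 without VC- replicate 1, 707 and 726 without VC+ replicate 2 and replicate 1, and 5098 and 4963 without D0 replicate 2 and replicate 1.

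Replicate number went with the day label of the differentiated cells, with depth and with the marker sums given above, and these cannot be told apart. Of the 18 S-phase and proliferation genes, 15 were lower in replicate 2 in every group, against 31.8% of all genes. The part of the other cell types in these values was not tested.

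**Figure D4:**
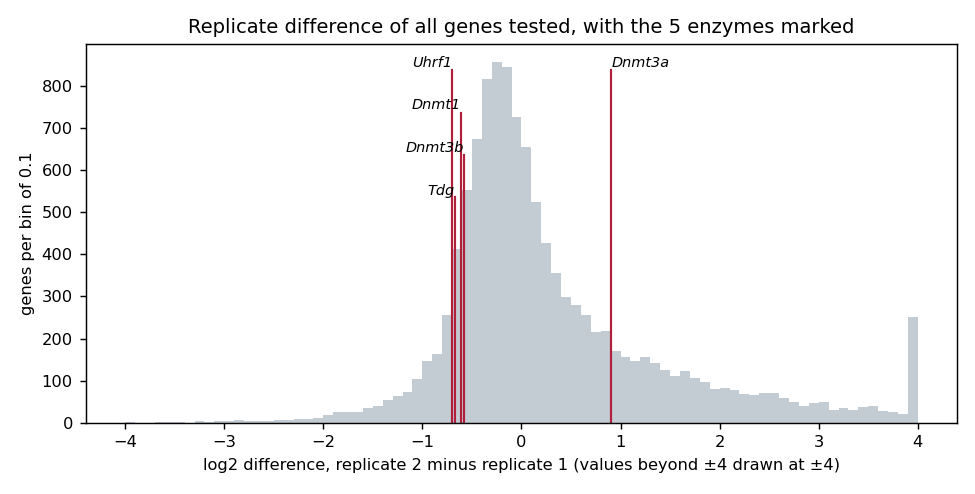
Number of genes (vertical axis) by log2 difference of replicate 2 minus replicate 1 (horizontal axis, bins of 0.1) over the 11823 genes tested, with red lines at the 5 enzymes. Dnmt3a lies at 0.91 and the other four between -0.70 and -0.58.

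The genes whose profile over the 6 libraries lay nearest to each member were found by the root-mean-square distance between log2 values centred on each gene's own mean. Closest to Uhrf1 were Cdca2, a mitotic regulator of a protein phosphatase, at 0.0632, and the adaptor Shc3 at 0.0910. Cdca2 stood at 13.01 and 7.21 CPM in VC+ cells, 13.1 and 5.27 CPM in VC- cells and 23.3 and 21.3 CPM in D0 cells. Nearest to Dnmt1 were the histone chaperone Anp32b (0.0440) and the phosphodiesterase Pde3b (0.0443), and to Dnmt3a the transcriptional regulator Rai1 (0.0355) and the receptor Lrp10 (0.0752). Dnmt3b lay nearest to Oxsm (0.0289), a mitochondrial fatty acid enzyme, and Whsc1 (0.0494), a histone H3 lysine 36 methyltransferase. Tdg was nearest to Atp5a1 (0.0353), a subunit of ATP synthase, and Cecr5 (0.0399). Among the members, Dnmt1 and Dnmt3b were 0.122 apart, Dnmt3b and Tdg 0.153 and Dnmt1 and Tdg 0.169, while Uhrf1 was at least 0.411 and Dnmt3a at least 0.836 from each of the others. The median distance of all genes tested was 0.516 from Dnmt1, 0.774 from Uhrf1 and 0.662 from Dnmt3a. These 6 libraries share replicate sets, so the distances describe them only.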

How the data were processed

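RNA-seq of 6 libraries was analysed, 2 per group; the other 18 samples of the series were not analysed here. The authors deposited CPM, the reads of a gene scaled to a total for its library; the labels' protocols give a TruSeq RNA kit. The submitters' processing notes list STAR 2.5.1 and edgeR 3.12.1 beside other tools, and the build rn5, with no roles; the read counter, annotation, strand setting and gene filter are not given in the sources used here. Of all values, 100% were whole multiples of 1 step per library (tolerance 1e-06), so reads were recovered by dividing. Genes listed held 60.2% to 67.7% of each total.

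Groups were compared with limma 3.58.1 in R 4.3.3, two-sided with a mean-variance trend, on log2(CPM + 0.5). Its 11823 genes reached 1 CPM in 2 or more libraries, 3 groups shared 1 fit and calls needed a Benjamini-Hochberg adjusted p under 0.05. An exact permutation test of 2 libraries against 2 has a smallest p of 0.333 and was not run. Fold changes on this scale understate changes of low genes. Alternatives were the count tests of edgeR 4.0.16 and DESeq2 1.42.0, run on the recovered reads, other pseudocounts, filters and scaling, a replicate term and leaving out each library. Number and day label are common to the VC+ and VC- libraries of a replicate, and their deviations from the group means correlated at 0.914 across genes, so a paired fit was made. Counting intervals are exact binomial (95%) and cover counting error only. The code was tested on simulated counts. The members and gene lists were chosen with earlier results of these data known. Named were the 5 members, the 3 genes of highest mean CPM per pathway list with any called by limma, and the 2 nearest profiles per member; other names were chosen after their values were seen.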

Additional observations from a re-analysis of the deposited data

Results flagged for a closer look

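A difference between replicate 1, labelled day 4 in the differentiated cells, and replicate 2, labelled day 5, drew attention for 4 results in which the direction was opposite. These differences between replicates were not tested, since each rests on 1 pair of libraries. Between VC+ and VC- cells, Dnmt3a had log2 differences of 0.08 in replicate 1 and -0.19 in replicate 2, Uhrf1 of -0.17 and 0.38, and Tdg of -0.13 and 0.09. Between VC+ and D0 cells, Dnmt3a had 0.65 in replicate 1 and -0.15 in replicate 2. Over all genes tested, opposite directions were found for 42.1% between VC+ and VC- cells and for 41.0% between VC+ and D0 cells.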

How the results depend on the processing

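Leaving out single libraries aside, 163 of 165 values of the members, over the 3 comparisons and 11 alternatives, kept their direction and their side of the threshold; the other two are Uhrf1 against D0 in DESeq2 with the replicate block, at -1.18 for VC+ (adjusted p 0.0448) and -1.26 for VC- (0.0407), so that members called became 1 in each. In the labels D0 shares only a number with the other groups. Its deviations correlated at 0.688 with VC+ and 0.730 with VC-. Its microglia, fibroblast and oligodendrocyte marker sums differed between replicates in the same direction as theirs. The DESeq2 fit with the replicate block called 772 genes for VC+ against D0 (6.53%, 2.93% lower) and 457 for VC- against D0 (3.87%, 2.28% lower). Among them were 8 and 10 of the 18 S-phase genes, all lower, and Cdca7 (adjusted p 0.000206 and 0.000419). Without pairing DESeq2 called 137 and 71, and paired edgeR 11 for VC+. Paired limma called 0 genes in every comparison, and the adjusted p of Uhrf1 there was 0.201 for VC+ and 0.253 for VC-. Over all alternatives the adjusted p of Uhrf1 ran up to 1.00. For vitamin C, DESeq2 called 6 genes, 32 when paired (0.271%), with no member among them, and the replicate block changed no other call of a member.

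Leaving out 1 library reversed the direction of several values that had not passed. Ranges for VC+ over VC- were -0.22 to 0.62 for Dnmt1, -0.46 to 0.35 for Dnmt3a, -0.52 to 0.73 for Uhrf1 and -0.42 to 0.38 for Tdg. For VC+ over D0 they were -0.75 to 0.087 for Dnmt1, -0.43 to 0.92 for Dnmt3a, -0.53 to 0.11 for Dnmt3b and -0.58 to 0.056 for Tdg, and for VC- over D0 -0.37 to 0.98 for Dnmt3a and -0.64 to 0.16 for Tdg. Uhrf1 stayed below D0, at -1.48 to -0.78 for VC+ and -1.86 to -0.61 for VC-. In these fits the group with 1 library is taken to vary as the others do, and the replicate difference enters the comparison. Genes called for the replicate term ranged from 0, without VC- replicate 2, to 5098, without D0 replicate 2, against 2971 with all; these alternatives were chosen after seeing the data. Depth limits Dnmt3b most, with 52 to 106 reads a library.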
